A study of Homo sapiens with 4 samples.

Results

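The data described here are the line-dependent part of the response to ZIC5 siRNA in 2 human melanoma cell lines, that is, how far the siRNA difference in A375 departed from that in SK-MEL-28. All 4 arrays of the study entered, 1 for each group: A375 with negative control siRNA, A375 with siRNA for ZIC5, SK-MEL-28 with negative control siRNA and SK-MEL-28 with siRNA for ZIC5. Both are established lines that carry an activating BRAF mutation, and RNA was taken 48 h after transfection. Values are HG-U133 Plus 2.0 intensities, used as log2. The siRNA difference of a line is the log2 intensity on its ZIC5 siRNA array minus that on its control array. Where a pair of differences is given without line names, A375 comes before SK-MEL-28, and a pair of intensities gives control before ZIC5 siRNA. The line difference is the A375 siRNA difference minus the SK-MEL-28 siRNA difference, so 1 means that the ZIC5-to-control ratio was 2-fold higher in A375. Each gene was read from its brightest probe set by mean log2, and 13794 of 19775 genes had the mean log2 of at least 5 (intensity 32) that was required. No group had a second array, so an interaction of siRNA and line leaves nothing to estimate an error from, and no difference below was tested. Spread between cultures cannot be told apart from the siRNA effect or from the line, and in bulk RNA fewer cells of a type and less RNA per cell cannot be told apart either.

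ZIC5 belongs to the ZIC family of zinc-finger transcription factors and is known for its part in neural crest development, the origin of melanocytes. Proliferating cells switch on replication genes through E2F factors at the start of S phase. Mitotic genes are switched on later, and many hold CHR and CCAAT elements in their promoters. Melanoma cells also secrete proteases, cytokines and chemokines under the control of AP-1, NF-kB and YAP/TAZ, and these genes differ widely between melanoma lines.

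The probe set of ZIC5 was under the level minimum, at 16.8 and 14.1 in A375 with control and ZIC5 siRNA and at 21.4 and 15.5 in SK-MEL-28, so these arrays give no check on the knockdown in either line. The arrays had median intensities between 38.4 and 39.4. The Pearson correlation of log2 intensity over all probe sets was 0.976 between the A375 arrays and 0.990 between those of SK-MEL-28. Of 12 melanocyte lineage markers 10 were measured, with a median log2 under control siRNA of 7.25 (A375) and 10.7 (SK-MEL-28). Of markers of other cell types, 5 of 10 epithelial, 7 of 15 leukocyte, 5 of 9 endothelial, 5 of 10 fibroblast and 7 of 12 keratinocyte genes reached the level minimum. EPCAM, PTPRC and CDH5, picked from the epithelial, leukocyte and endothelial markers, did not. The fibroblast marker LUM did, at 162 and 14.9 in A375 and at 875 and 498 in SK-MEL-28. The epithelial marker CDH1 missed the minimum because of A375, at 6.0 and 5.6. In SK-MEL-28 it was at 59.2 and 56.0, so a marker that missed the minimum was not always low in both lines. The median line difference of the melanocyte lineage markers was 0.07.

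Most of the genes that passed a 2-fold size rule in A375 differed by less than 0.5 in size in SK-MEL-28, while the reverse was less marked. In A375 537 genes were at least 2-fold higher (3.89% of genes) and 697 at least 2-fold lower (5.05%). In SK-MEL-28 the counts were 107 higher (0.776%) and 292 lower (2.12%). Of the 1234 A375 genes, 711 had an SK-MEL-28 difference under 0.5 in size (57.6%), and 483 (39.1%) also had a line difference of at least 1 in size. A further 273 (22.1%) differed in SK-MEL-28 by 0.5 to 1 with the same sign, and 48 (3.89%) by 0.5 or more with the opposite sign. Of the 399 SK-MEL-28 genes, 87 had an A375 difference under 0.5 (21.8%), and 50 (12.5%) also had a line difference of at least 1 in size. A further 90 (22.6%) differed in A375 by 0.5 to 1 with the same sign, and 20 (5.01%) by 0.5 or more with the opposite sign. The 202 genes past the rule in the same direction in both lines made up 16.4% of the A375 genes and 50.6% of the SK-MEL-28 genes. The SD of the siRNA differences over genes was 0.60 for A375 and 0.39 for SK-MEL-28, and that of the line difference was 0.55, with a median of 0.00.

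The line difference was at least 1 for 494 genes (3.58%) and at most -1 for 441 genes (3.2%), 935 of 13794 in all. At this limit NSD2 lay just inside, at -1.001, and SOCS2 just outside, at -0.999. A gene was placed in a one-line class when its siRNA difference was at least 1 in size in that line and under 0.5 in the other, with a line difference of at least 1 in size. In A375 234 genes (1.7%) were in the class of higher genes and 249 (1.81%) in that of lower genes. In SK-MEL-28 16 genes (0.116%) were in the class of higher genes and 34 (0.246%) in that of lower genes. A further 74 genes were at least 0.5 higher in A375 and at least 0.5 lower in SK-MEL-28 (0.536%), and 45 went the other way (0.326%). Genes that differed in the same direction, by at least 0.5 in both lines and with a gap of at least 1, numbered 55 with the greater size in A375 (0.399%) and 11 with the greater size in SK-MEL-28 (0.0797%). The remaining 217 genes (1.57%) had a line difference of at least 1 in size but met no class rule, among them JUN, SOX10 and INSIG1. The imbalance of the one-line classes depends on the scale given to each line: with each line scaled to the same SD over genes, the A375 classes held 104 higher and 107 lower genes, and the SK-MEL-28 classes 60 and 106.

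**Figure D1:**
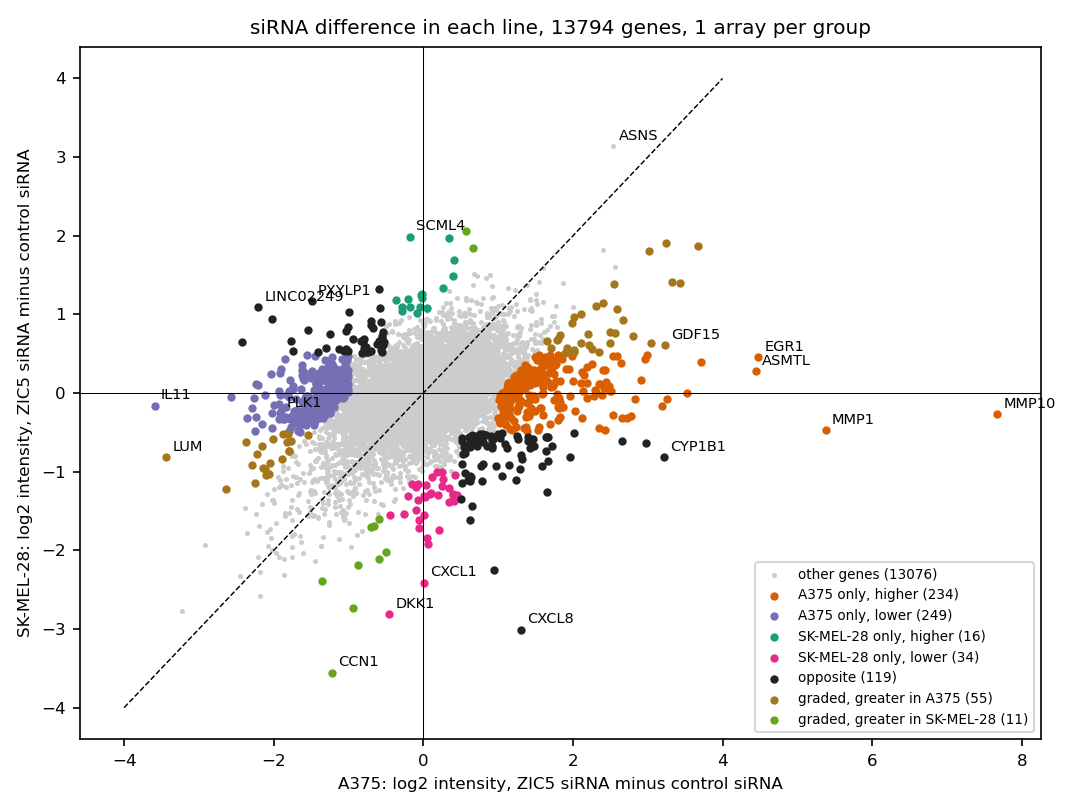
Each point is 1 gene, with its siRNA difference in A375 on the horizontal axis and in SK-MEL-28 on the vertical axis, both in log2 units from 1 array per group, and colours mark the classes. The 234 and 249 genes of the A375 classes form a horizontal band through 0, CXCL8 lies alone at 1.30 and -3.01, and the dashed line marks equal differences.

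**Figure D2:**
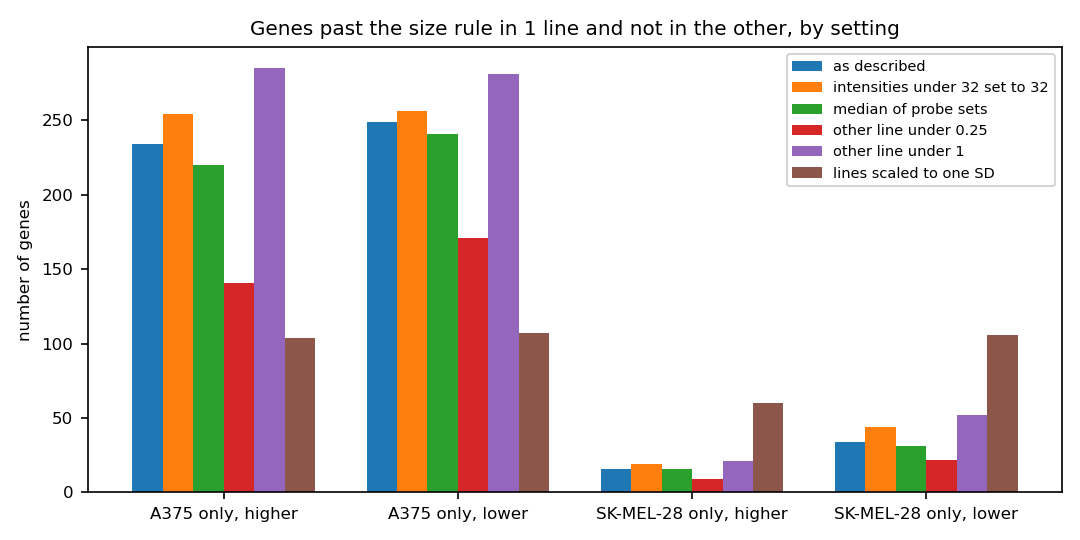
Bars give the number of genes in each one-line class as described and under 5 other settings. The A375 classes hold 234 and 249 genes as described and 104 and 107 with the lines scaled to 1 SD, while the SK-MEL-28 classes go from 16 and 34 to 60 and 106.

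Other probe sets of the same genes gave a check on the array reading, though from the same RNA. Over all genes with at least 2 probe sets at the level minimum, 56.1% had the same sign of the line difference in all of them (3724 of 6635). The share was 73.8% (79 of 107) for the higher and 84.7% (83 of 98) for the lower A375 class. It was 10 of 11 and 11 of 12 genes in the SK-MEL-28 classes. The classes were picked for line differences of at least 1 in size, while most genes had smaller ones. A greater share in the classes was therefore given by the selection and lends them no support. A gene that sits at the bottom of the scale in a line cannot be read there: 41 of the 234 higher A375 genes were under intensity 32 on both SK-MEL-28 arrays (17.5%, against 2.43% of all genes), and 22 of the 249 lower ones were. With intensities under 32 set to 32, 229 of the 234 and 231 of the 249 genes kept their class. For genes under 32 on both SK-MEL-28 arrays this makes the SK-MEL-28 values equal. Keeping the class therefore cannot show that they did not change in SK-MEL-28.

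The cell division programme held the lists with the lowest median line differences. Of 45 genes of the G2/M phase and mitosis, 39 were at least 2-fold lower in A375 and 0 in SK-MEL-28, where 5.05% and 2.12% of all genes were. The median of the list was -1.26 for A375 and 0.01 for SK-MEL-28, against -0.01 and 0.00 for all genes. All 45 members were lower in A375, while 23 were higher and 22 lower in SK-MEL-28. A line difference of -1 or below was found for 39 of the 45 (3.2% of all genes), and all 23 members with several probe sets had a negative line difference in each of them. The median log2 intensity of the list was 10.1 on the A375 control array and 8.90 on the A375 ZIC5 siRNA array, and it was 9.67 and 9.69 on those of SK-MEL-28. A375 thus lay above SK-MEL-28 under control siRNA, by a median of 0.32 per gene, and below it under ZIC5 siRNA, by 0.83.

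SPC25, a kinetochore subunit of the NDC80 complex, had the lowest line difference of the list. In A375 its intensity was 243 with control and 59.0 with ZIC5 siRNA, and the SK-MEL-28 arrays read 415 and 489.8, a line difference of -2.28. The spindle kinase AURKA was at 2006 and 495 in A375 and at 1946 and 1633 in SK-MEL-28 (line difference -1.76). PLK1, which drives mitotic entry and spindle assembly, was at 237 and 63.0 and at 190.4 and 159.6 (-1.66). In these 3 genes the A375 ZIC5 siRNA array was the lowest of the 4. The hyaluronan receptor and spindle protein HMMR had siRNA differences of -1.79 and 0.03, the kinesin KIF20A of -1.80 and -0.05, the spindle pole protein ASPM of -1.26 and 0.39 and cyclin CCNB1 of -1.58 and -0.18. PRC1, which bundles microtubules at the spindle midzone, was 2.02-fold lower in A375 and 1.79-fold higher in SK-MEL-28. The phosphatase CDC25B stood outside the pattern, with -0.03 and 0.35, and the cytokinesis kinesin KIF23 was lower by only 0.69 on the log2 scale in A375, with -0.24 in SK-MEL-28. CDK1, the kinase partner of CCNB1, differed by -1.24 and -0.34.

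Replication genes, which act from the G1/S transition on, were lower in A375 and mostly higher in SK-MEL-28. Of 54 measured, 53 were below 0 in A375 and 44 above 0 in SK-MEL-28, with medians of -0.74 and 0.28. The size rule was passed by 13 lower genes in A375 (5.05% of all genes), and by 2 higher and 1 lower in SK-MEL-28 (0.776% and 2.12%). The line difference was -1 or below for 29 of the 54, against 3.2% of all genes. RRM2, the inducible subunit of ribonucleotide reductase, was at 4350.0 with control and 2918 with ZIC5 siRNA in A375, and at 4088 and 8668 in SK-MEL-28. The polymerase subunit POLE2 was at 279 and 114 in A375 and at 177 and 263 in SK-MEL-28. In both genes A375 was the higher line under control siRNA and the lower under ZIC5 siRNA. The primase PRIM1 differed by -0.94 and 0.69, the replication initiator MCM10 by -1.04 and 0.54, and the checkpoint mediator CLSPN by -1.22 and 0.37. The clamp loader subunit RFC5 had -1.40 and 0.26, but 1 of its 3 probe sets had a line difference of 0.27 in place of -1.66. E2F2, a transcription factor of this programme, was at 269.9 and 267 in A375 and at 298 and 710.4 in SK-MEL-28, and so belonged to the SK-MEL-28 class. The repressor E2F7 was lower in both lines, at -0.69 and -1.02, and cyclin CCNE1 was higher in both, at 0.33 and 0.31.

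DNA repair and Fanconi anaemia genes followed the replication genes. Of 33 measured, 6 were at least 2-fold lower in A375 (5.05% of all genes) and 0 were in SK-MEL-28 (2.12%). The medians were -0.65 and 0.17, and 12 had a line difference of -1 or below (3.2% of all genes). RMI1, a subunit of the BLM dissolvasome, differed by -1.14 and 0.17, the recombination translocase RAD54L by -1.01 and 0.30 and the Fanconi core protein FANCB by -1.17 and 0.14. The damage kinase ATM went the other way in A375, from 202 to 430.4, with 613 and 612 in SK-MEL-28, although 1 of its 4 probe sets had a line difference of -0.33. The mitosis, replication and repair lists together held 132 measured genes, 0.957% of all genes, and 52 of the 249 lower A375 genes (20.9%). The lists were chosen with earlier results of these data known, so this excess is no independent support. Core histones and the list of CDK inhibitors, D cyclins and pocket proteins had median line differences of 0.22 and -0.25. Beyond the mitosis, replication and repair lists, the kinesin KIF15 (-1.93 and 0.02) and the DNA glycosylase NEIL3 (-2.23 and -0.30) were among the 20 leading genes of the lower A375 class.

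**Figure D3:**
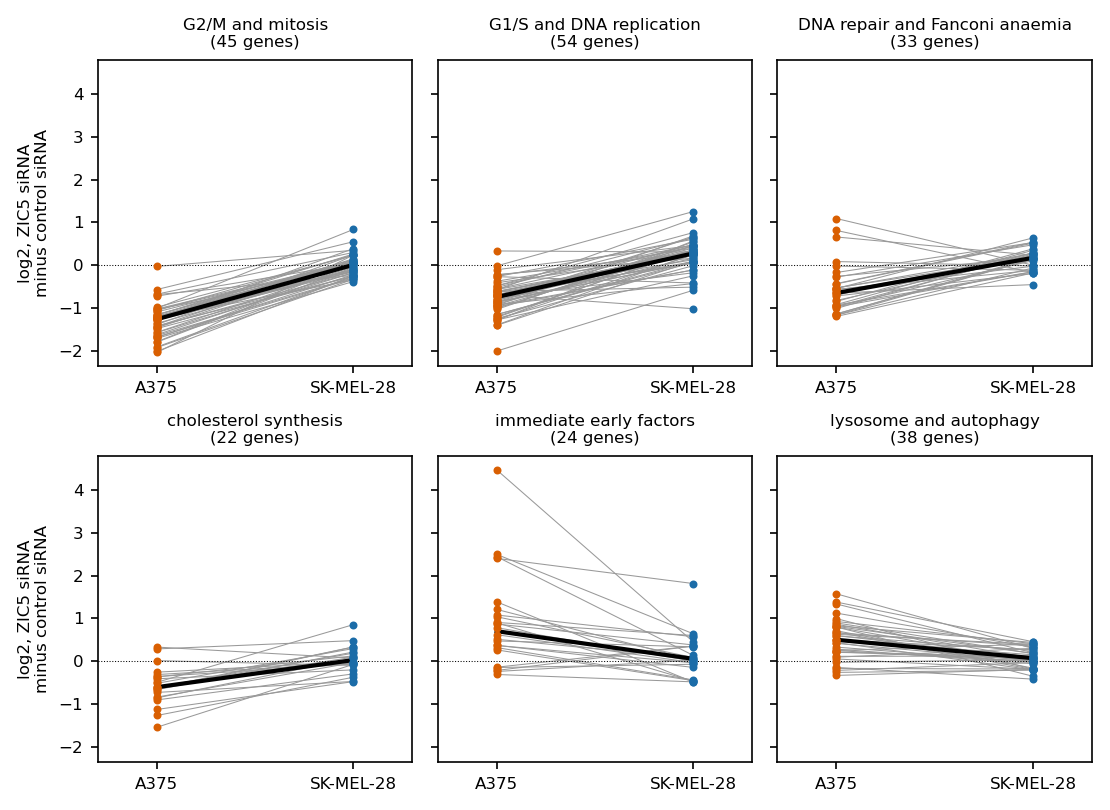
Each thin line joins the A375 and SK-MEL-28 siRNA differences (log2) of 1 gene for 6 gene lists, and the thick line joins the list medians. Mitosis genes lie around -1.26 in A375 and around 0.01 in SK-MEL-28, and replication genes cross 0 between the lines, from -0.74 to 0.28.

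Promoters are shown for some genes of the mitosis and replication lists, which both had negative median line differences. They were picked among members that already held the marked motifs in the bases printed. That they hold the motifs is therefore no result. RefSeq promoter sequences (GRCh38.p14, from 250 bases before to 50 after the start) were matched by symbol for 11046 of the 13794 genes. Below are the last 150 bases before the start, 5′ to 3′, with capitals marking TTTGAA (the CHR element) and CCAAT on either strand in HMMR (chr5:163460482-163460631, plus strand) and PLK1 (chr16:23678739-23678888, plus strand). For POLE2 (chr14:49688215-49688364, minus strand) and E2F2 (chr1:23531234-23531383, minus strand) capitals mark the E2F motif TTTNGCGC.
HMMR: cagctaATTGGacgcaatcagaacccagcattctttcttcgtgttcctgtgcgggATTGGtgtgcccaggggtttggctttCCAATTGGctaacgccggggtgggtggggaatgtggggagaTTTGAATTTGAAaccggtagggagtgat
PLK1: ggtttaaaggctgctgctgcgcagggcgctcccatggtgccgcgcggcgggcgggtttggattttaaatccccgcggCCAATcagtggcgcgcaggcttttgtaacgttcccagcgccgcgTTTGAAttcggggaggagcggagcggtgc
POLE2: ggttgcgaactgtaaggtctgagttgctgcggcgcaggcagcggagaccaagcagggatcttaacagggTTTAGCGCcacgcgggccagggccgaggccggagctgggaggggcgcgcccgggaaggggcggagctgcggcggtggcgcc
E2F2: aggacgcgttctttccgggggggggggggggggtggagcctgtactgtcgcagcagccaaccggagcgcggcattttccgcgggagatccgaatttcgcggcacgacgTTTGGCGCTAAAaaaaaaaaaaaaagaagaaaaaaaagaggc
In PLK1 the CHR element begins 29 bases and the CCAAT box 73 bases before the start. Both elements were found in the promoters of 21 of 39 matched mitosis genes (53.8%), against 4.09% of the promoters of genes analysed and 6.08% of all 27305 promoters. TTTNGCGC was found in 18 of 46 matched replication genes (39.1%), against 2.83% of genes analysed and 1.83% of all promoters. The search covered both strands, and E2F2, with 2 overlapping matches, shows that the motif can match itself on the opposite strand.

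Genes were also grouped by promoter letters and not by list. Of 452 genes with both CHR and CCAAT, 13.7% were at least 2-fold lower in A375 and 1.99% in SK-MEL-28, against 4.93% and 2.20% of 10594 genes without both. Leaving out all members of the 3 cell cycle lists, the shares were 10.1% and 2.11% of 426 genes, against 4.67% and 2.21%. The 313 genes with TTTNGCGC had medians of -0.10 and 0.03, against -0.01 and 0.00 without it. Outside the cell cycle lists 6.21% of 290 such genes were at least 2-fold lower in A375, close to the 4.85% of those without the motif. In the lower A375 class, 29.1% of 213 promoters held TTTGAA, and 23.8% of 168 did outside the cell cycle lists. The shares were 9.95% of genes analysed and 15.4% of all promoters. Genes outside the 3 lists still included cell division genes such as the kinesin KIF15.

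Most cholesterol synthesis genes had lower values with ZIC5 siRNA in A375, while those in SK-MEL-28 lay on both sides of 0. Of 22 cholesterol synthesis genes measured, 19 were below 0 in A375, with a median of -0.61, and 11 were below 0 in SK-MEL-28, with a median of 0.03. In A375 3 passed the size rule, all lower (5.05% of all genes did), and in SK-MEL-28 0 (2.12%), and the others differed by less. Of the 22 line differences, 20 were below 0 (50.3% of all genes) and 2 were -1 or below (3.2%). ACAT2, which makes the acetoacetyl-CoA precursor, was at 757 and 259 in A375 and at 846 and 804 in SK-MEL-28. INSIG1, which holds the sterol sensor in the endoplasmic reticulum, was at 903 and 641 in A375 and at 406 and 735 in SK-MEL-28. The reductase DHCR7 differed by -0.86 and 0.07, the isomerase IDI1 by -0.63 and 0.33 and the oxidase MSMO1 by -1.27 and -0.38. The 16 fatty acid genes had medians of -0.22 and -0.02. In A375 3 were at least 2-fold lower (5.05% of all genes) and 4 were above 0, among them the ligase ACSL1 (0.93 and 0.74). The desaturase SCD had the lowest line difference, with 4279 and 1434 on the A375 arrays and 3768 and 3598 on those of SK-MEL-28, and all 4 of its probe sets were on that side. GPAM, which starts glycerolipid synthesis, belonged to the SK-MEL-28 class, at 98.2 and 317 there and 157 and 207 in A375. FASN was lower by 1.17 and 0.44 on the log2 scale in the 2 lines.

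Matrix proteases gave the greatest line differences of all genes. MMP10, a stromelysin, was at 9.5 with control and 1943 with ZIC5 siRNA in A375, and at 14.5 and 12.1 in SK-MEL-28. Its line difference of 7.94 starts from values at the bottom of the scale and was 5.92 with intensities under 32 set to 32. MMP10 was above 32 only on the A375 ZIC5 siRNA array. It therefore reached the level minimum through that array alone and could not be read in SK-MEL-28. MMP1, the interstitial collagenase, was at 103 and 4284 in A375 and at 451 and 324 in SK-MEL-28, so the line with the lower control value became the higher by far. MMP3, another stromelysin, was at 20.5 and 55.8 in A375 and at 64.2 and 56.3 in SK-MEL-28, and left the A375 class with intensities under 32 set to 32 (0.80 in A375). The gelatinase MMP9 was lower in A375, at 103 and 42.4, with 52.4 and 50.8 in SK-MEL-28. Of 15 metalloproteases measured, 3 were in the higher and 1 in the lower A375 class (1.7% and 1.81% of all genes), and the medians were 0.23 and -0.12.

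Immediate early transcription factors, the transient first targets of growth factor and stress signals, had 19 of 24 measured members above 0 in A375 and 15 in SK-MEL-28. In A375 8 were at least 2-fold higher (3.89% of all genes) and in SK-MEL-28 1 was (0.776%), with medians of 0.70 and 0.05. The line difference was at least 1 for 6 of them (3.58% of all genes). EGR1 was at 186 and 4152 in A375 and at 778 and 1065 in SK-MEL-28, with line differences between 3.77 and 4.28 over its 3 probe sets. FOS was at 42.4 and 231 in A375 and at 157 and 172 in SK-MEL-28. In both genes the A375 control array was the lowest of the 4 and the A375 ZIC5 siRNA array the highest. JUN differed by 0.90 and -0.47 and the nuclear receptor NR4A3 by 1.39 and -0.49 (0.66 in A375 with intensities under 32 set to 32). EGR3 did not share the pattern, at 2.41 and 1.82. ERK feedback inhibitors, which ERK signalling induces to restrain itself, had medians of 0.75 and 0.13 over a list of 19 genes that also holds the ERK-responsive factors ETV1 (-0.15 and -1.16), ETV4 (-0.48 and 0.51) and ETV5 (0.34 and 0.07) and the cytokine IL11 (-3.59 and -0.16). The phosphatase DUSP2 differed by 1.60 and -0.27 and DUSP1 by 1.27 and -0.04, the last on 1 of its 2 probe sets, while DUSP6 (1.28 and 0.85) and SPRY4 (1.35 and 1.07) were higher in both lines.

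Other leading genes of the higher A375 class were IGFBP3, STC1, LPAR6 and ASMTL. IGFBP3, which binds insulin-like growth factors, was at 719 and 4726 in A375 and at 370.3 and 297 in SK-MEL-28. The hormone STC1 was at 339 and 4435 in A375 and at 88.4 and 116 in SK-MEL-28. The lysophosphatidic acid receptor LPAR6 was at 109 and 1261 in A375 and at 114 on both SK-MEL-28 arrays. ASMTL was at 116 and 2525 in A375 and at 142 and 172 in SK-MEL-28, with all 3 probe sets between 3.71 and 4.17. These 4 genes could be read in both lines under control siRNA. SCG5, a neuroendocrine chaperone (3.26 and -0.08), and the surface glycoprotein CD24 (3.19 and -0.16) were under intensity 32 on both SK-MEL-28 arrays. The interleukins IL1A and IL1B, neighbours on chromosome 2, were 3.54-fold and 4.37-fold higher in A375, and differed by -0.11 and -0.32 in SK-MEL-28, where IL1A was at 9.9 and 9.2 and IL1B at 493 and 395. In the list of NF-kB subunits and induced genes, 4 of 25 were at least 2-fold higher in A375 (3.89% of all genes were) and 0 were in SK-MEL-28 (0.776%), with medians of 0.44 and 0.06. The chemokine CCL20 of this list went the other way, at -2.05 and -0.89.

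TGF-beta pathway genes included members of both A375 classes. BMP6 (2.66, and under intensity 32 on both SK-MEL-28 arrays), BMP2 (1.19 and -0.06), the activin subunit INHBA (1.38 and -0.13) and the latent TGF-beta binding protein LTBP2 (1.25 and -0.07) were in the higher A375 class, and the inhibitor SMAD6 (-1.25 and -0.23) was in the lower. INHBA stood at 3386 and 8805 in A375 but at 40.4 and 36.8 in SK-MEL-28. Of 31 genes, 5 were at least 2-fold higher and 2 lower in A375 (3.89% and 5.05% of all genes), and 0 either way in SK-MEL-28 (0.776% and 2.12%). Lysosome and autophagy genes had medians of 0.50 and 0.07 over 38 genes, with 4 at least 2-fold higher in A375 (3.89% of all genes) and 0 of them in SK-MEL-28 (0.776%). The autophagosome protein MAP1LC3B (1.58 and 0.30) and the initiating kinase ULK1 (1.34 and 0.20) were its 2 members in the higher A375 class.

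**Figure D4:**
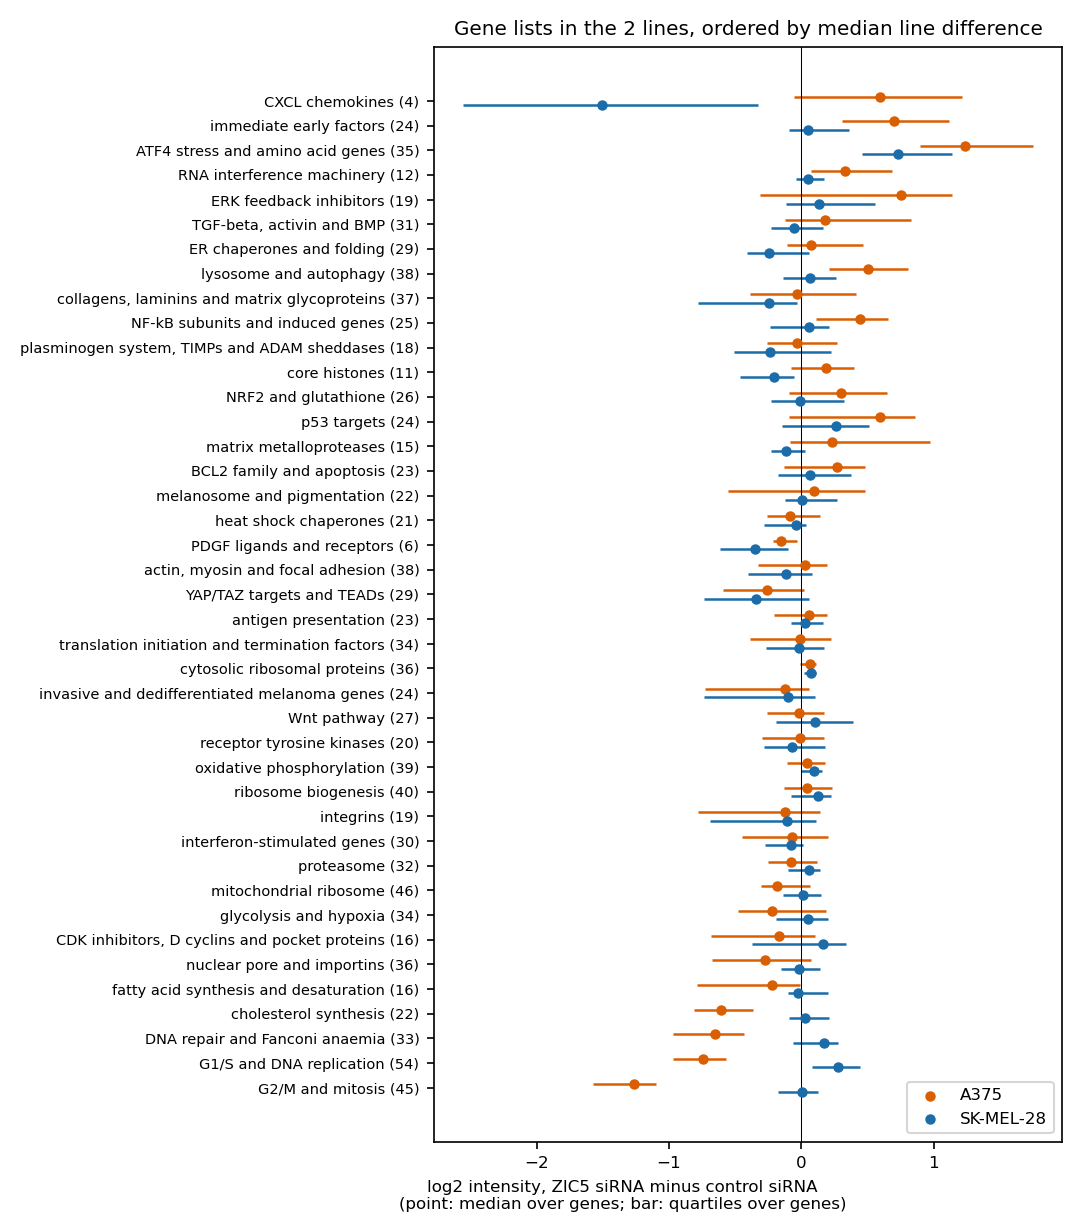
Points give the median siRNA difference (log2) over the measured genes of each list other than the cell type markers, in A375 and SK-MEL-28, bars the quartiles over genes, and the number of genes is in parentheses. Mitosis, replication, repair and cholesterol lists lie left of 0 in A375 and at or right of 0 in SK-MEL-28 (A375 medians -1.26 to -0.61), and the CXCL list is the only one with its SK-MEL-28 median below -0.5.

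The ATF4 stress response, high in both lines, had line-dependent members. Of 35 genes, 24 were at least 2-fold higher in A375 (3.89% of all genes) and 14 were in SK-MEL-28 (0.776%), with medians of 1.24 and 0.73. DDIT3 (CHOP), the pro-apoptotic factor of this pathway, was at 214 and 1497 in A375 and at 261 and 431 in SK-MEL-28. PPP1R15A, which returns eIF2 alpha to its active state, was at 311 and 936 in A375 and at 778 and 771 in SK-MEL-28. The lipoprotein receptor VLDLR differed by 2.48 and 0.09. NUPR1 went the other way, at 48.3 and 63.3 in A375 but 69.8 and 196 in SK-MEL-28, and the folate enzyme MTHFD2 was higher by 0.57 and 1.19. Among chaperone and unfolded protein response genes, the stress sensor ERN1 differed by 2.30 and 0.01, with 2 of its 3 probe sets on that side, and XBP1, whose RNA it splices, was at 336 and 673 in A375 and at 1245 and 1395 in SK-MEL-28. The stress cytokine GDF15 was 9.41-fold higher in A375, from 52.7 to 496, and 1.52-fold higher in SK-MEL-28, where it was already at 3348 under control siRNA.

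The lower A375 class was led by IL11, a cytokine of the IL6 family, at 1879 and 156 in A375 and at 18.4 and 16.5 in SK-MEL-28, where it could not be read. The keratin KRT7 (556 and 128 in A375) and the imprinted gene MEST (243 and 50.5) were likewise under intensity 32 on both SK-MEL-28 arrays, and KRT7 had only 1 of 2 probe sets with this sign. Genes readable in both lines were NANOS1, an RNA-binding repressor (169.5 and 36.1 in A375, 332 and 361 in SK-MEL-28), MYEF2 (143 and 30.8, 144 and 154) and the actin regulator RFLNB (128 and 34.3, 1297 and 1597). FXYD3, a regulator of the sodium pump, was at 527 and 140.1 in A375 and at 443 and 437 in SK-MEL-28. COL5A1, a fibrillar collagen chain, differed by -1.81 and -0.32. FAM20C had a line difference of -2.52 on the probe set used, but 2 of its 4 probe sets were on the other side.

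Among the genes lower in SK-MEL-28 and not in A375 were the chemokines CXCL8 and CXCL1, and CCN2 and DKK1 of the YAP/TAZ list. Of the 34 genes of the lower SK-MEL-28 class, these lists held CXCL1, CCN2 and DKK1. CXCL8, a neutrophil chemokine, was at 331 with control and 818 with ZIC5 siRNA in A375, and at 2818 and 351 in SK-MEL-28. The higher line under control siRNA was thus the lower under ZIC5 siRNA. CXCL1, which acts through the same receptor family, was at 270.1 and 273 in A375 and at 752 and 142 in SK-MEL-28. CXCL3 differed by 1.18 and 0.51 (the SK-MEL-28 values lay under intensity 32) and CXCL16 by -0.26 and -0.61, so only CXCL8 and CXCL1 of the 4 measured members of a 13-gene list stood out. OSMR, a receptor for the IL6-family cytokine oncostatin M, was at 302 and 314 in A375 and at 346 and 91.3 in SK-MEL-28, on all 3 probe sets but with line differences from 0.19 to 1.98.

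Promoters of MMP10 (chr11:102780629-102780778, minus strand), CXCL8 (chr4:73740419-73740568, plus strand) and CXCL1 (chr4:73869243-73869392, plus strand) are given as examples. Their line differences were 7.94, 4.31 and 2.42, all positive, and other genes lay between them. Capitals mark the AP-1 motif TGANTCA and the NF-kB motif GGANNTTCC.
MMP10: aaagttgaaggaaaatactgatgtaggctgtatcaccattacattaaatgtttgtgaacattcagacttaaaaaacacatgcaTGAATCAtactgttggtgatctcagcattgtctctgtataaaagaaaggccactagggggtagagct
CXCL8: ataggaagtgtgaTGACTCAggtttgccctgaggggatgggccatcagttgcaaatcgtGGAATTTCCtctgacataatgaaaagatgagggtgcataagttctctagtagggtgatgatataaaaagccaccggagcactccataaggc
CXCL1: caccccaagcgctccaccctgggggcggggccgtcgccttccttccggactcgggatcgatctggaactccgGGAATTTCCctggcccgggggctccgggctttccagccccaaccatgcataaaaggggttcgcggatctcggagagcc
MMP10 held TGANTCA beginning 67 bases before the start, and CXCL8 held it 137 bases before. GGANNTTCC began 91 bases before the start in CXCL8 and 78 bases before in CXCL1. TGANTCA was found in 9.09% of 187 promoters of the higher A375 class, against 4.89% of genes analysed and 7.76% of all promoters. GGANNTTCC was found in 5.35% of them, against 4.42% and 4.59%. Of the 540 genes with TGANTCA, 6.85% were at least 2-fold higher in A375 and 0.370% were in SK-MEL-28, against 3.83% and 0.857% of those without it.

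**Figure D5:**
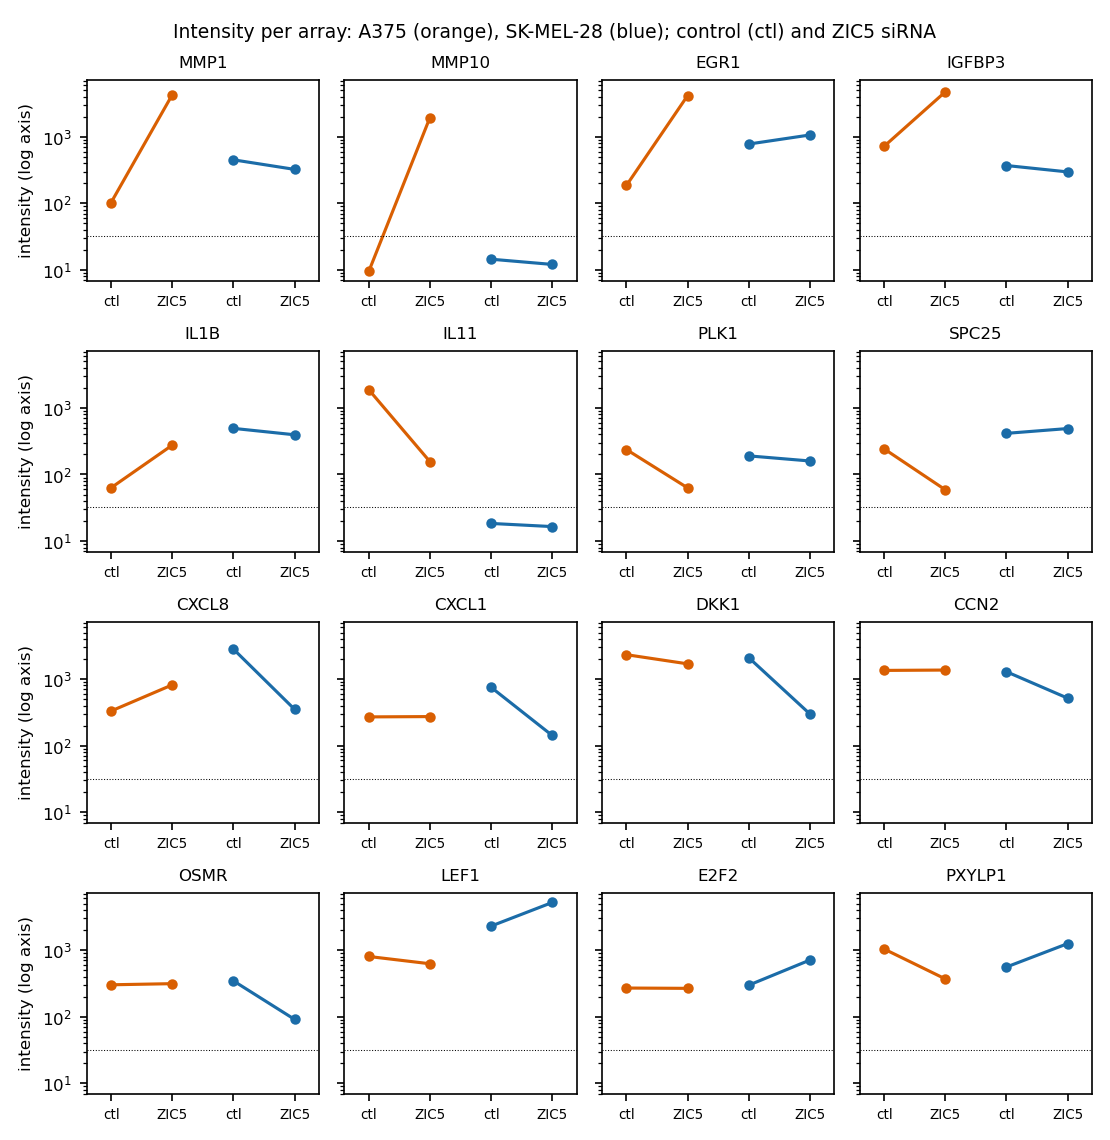
Intensity on each of the 4 arrays, on a log axis, for 16 genes, with A375 in orange, SK-MEL-28 in blue and a dotted line at intensity 32. MMP1 goes from 103 to 4284 in A375 and from 451 to 324 in SK-MEL-28, and CXCL8 goes from 331 to 818 and from 2818 to 351.

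DKK1, a secreted Wnt antagonist and YAP/TAZ target, was at 2322 and 1692 in A375 and at 2097 and 299 in SK-MEL-28. CCN2, a matricellular protein and standard readout of YAP/TAZ, was at 1348 and 1365 in A375 and at 1289.9 and 517 in SK-MEL-28. CCN1, its close relative, was lower in both lines but by more in SK-MEL-28, from 920.2 to 78.2, than in A375, from 2859 to 1228. In these 3 genes the SK-MEL-28 ZIC5 siRNA array was the lowest of the 4. Of 29 genes of the YAP/TAZ list, 6 were at least 2-fold lower in SK-MEL-28 (2.12% of all genes) and 4 in A375 (5.05%), and IGFBP3, NT5E and GADD45B were at least 2-fold higher in A375. A line difference of at least 1 was found for 7 (3.58% of all genes) and one of -1 or below for 0 (3.2%). The ectonucleotidase NT5E differed by 1.47 and -0.58. The list medians were close, at -0.26 and -0.34. The median line difference was higher with a level minimum of 7 or with the median of probe sets, so it depends on the processing. MYLK, the kinase of myosin light chain, was lower by 0.94 and 2.73 on the log2 scale in A375 and SK-MEL-28.

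Adhesion and matrix genes lower in SK-MEL-28 alone included the integrin ITGB8 (A375 1491 and 1776, SK-MEL-28 5470.5 and 2412), the matrix protein TGFBI (4583 and 4855, 75.6 and 31.2) and the collagen COL6A3 (352 and 469.6, 105 and 50.9). ITGA5, the fibronectin receptor subunit, was 3.18-fold higher in A375 and 1.47-fold lower in SK-MEL-28. The crosslinking enzyme LOX differed by -1.14 in SK-MEL-28 and could not be read in A375, at 5.1 and 7.3. Of 37 collagen, laminin and matrix genes, 28 had a positive line difference, 7 of at least 1 (3.58% of all genes), while LUM (-2.62) and COL5A1 (-1.49) were at -1 or below (3.2%), with medians of -0.03 and -0.24. The NKG2D ligand ULBP2 (0.39 and -1.28), the axon guidance gene NAV3 (-0.09 and -1.49), the transporter MFSD12 (0.42 and -1.37) and the receptor SLAMF9 (0.21 and -1.74) were other members of the class.

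The SK-MEL-28 class of higher genes was small. SCML4, a Polycomb-related protein, was at 251 and 996 in SK-MEL-28 and at 13.9 and 12.3 in A375, where it could not be read. LEF1, the Wnt-responsive transcription factor, was at 2300.4 and 5203 in SK-MEL-28 and at 804 and 625 in A375, with all 3 probe sets on that side but from -1.98 to -0.06. The transcription factor MYB (-0.18 and 1.10), the amino acid transporter SLC16A10 (-0.03 and 1.25), WDR76 (-0.02 and 1.21) and the BH3-only protein HRK (0.27 and 1.33) were further members. TCF7L2, another nuclear factor of the Wnt pathway, was higher in A375 instead, at 1.13 and 0.10, with all 7 probe sets between 1.03 and 1.52.

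Differences of at least 2-fold with opposite signs were found for 6 genes (0.0435%): CXCL8, IL17RD, PDE2A and PLCXD2 were higher in A375 and lower in SK-MEL-28, and PXYLP1 and LINC02249 were lower in A375 and higher in SK-MEL-28. PXYLP1, a phosphatase of proteoglycan synthesis, was at 1041 and 370.4 in A375 and at 558 and 1253 in SK-MEL-28. IL17RD, a feedback inhibitor of FGF signalling, was at 66.3 and 156 in A375 and at 93.1 and 43.4 in SK-MEL-28. Once every intensity under 32 was set to 32, PLCXD2 became 0 and PDE2A became -0.64 in SK-MEL-28, and LINC02249 became -0.73 in A375. CYP1B1 (3.21 and -0.81) and ESM1 (2.65 and -0.61) had opposite signs only below intensity 32 in SK-MEL-28. HAS2, a hyaluronan synthase, was at 23.0 and 181 in A375 and at 866 and 559 in SK-MEL-28, and kept its opposite signs.

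Of 22 melanosome and pigmentation genes, 4 had a line difference of at least 1 (SOX10, OCA2, GPNMB and BCL2A1) and 1 of -1 or below (MREG), against 3.58% and 3.2% of all genes. In the higher A375 class were 3 of them, against 1.7% of all genes. OCA2, a melanosomal channel protein, was at 123 and 661 in A375 and at 1166 and 1430.4 in SK-MEL-28. The melanosomal glycoprotein GPNMB was at 586 and 1215 in A375 and at 8672 and 8658 in SK-MEL-28. In both genes the A375 arrays stayed below those of SK-MEL-28. SOX10 differed by 0.89 and -0.15 and the melanosome transport protein MREG by -0.81 and 0.67. The apoptosis inhibitor BCL2A1 differed by 1.70 and 0.48, and the medians over the 22 genes were 0.10 and 0.01. PDGFD, a ligand of PDGF receptors, was not line-dependent by this rule, with 155 and 30.2 for A375, 366 and 107 for SK-MEL-28, and a line difference of -0.58.

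Basic cellular machinery showed little line dependence. Over 36 cytosolic ribosomal proteins, 46 mitochondrial ribosomal proteins, 39 oxidative phosphorylation subunits, 32 proteasome subunits and 40 ribosome biogenesis genes, 0 had a line difference of at least 1 in size, against 6.78% of all genes. Their median line differences lay between -0.13 and -0.01. Antigen presentation genes had a median of 0.00 over 23 genes.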

How the data were processed

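RNA from 2 melanoma lines under 2 transfections was hybridised to 4 arrays, 1 per group; each labelling began with 100 ng, per the labels' protocols. The labels do not say whether samples were separate cultures. The authors deposited 1 linear-scale intensity per probe set (2.78 to 22531), which per the submitters' processing notes came from RMA, run in Expression Console. Versions are not given in the sources used here. RMA shares its quantile normalization and probe model over arrays, so a shift of all genes in 1 line would be removed. Log2 was taken here (Python 3.11.15, pandas 2.3.3). Arrays carry no read depth, and their number limits the precision.

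Probe sets were named from the 2016 platform annotation: 41091 of 54613 named 1 gene, 1801 named several and were left out, and 11721 had no name. Entrez IDs matched RefSeq for 41037, with 0 symbols changed. No test or p-value was computed, since each group held 1 array, and a size rule of 2-fold was used. The 47 gene lists came from general knowledge, and the members and lists were chosen with earlier results of these data known. List members without a probe set of their own are not analysed here. Named genes were the 15 highest and 15 lowest line differences, up to 20 of each one-line class that held with intensities under 32 set to 32, leading opposite and same-direction genes, and up to 6 members of each list (all where 12 or fewer were measured), with further members named after their values were seen. The promoters printed were also chosen after values were seen, those of the mitosis and replication lists only among members that held the marked motifs. The classification code was run on simulated data with planted differences and little noise. That checks the code and not the error of the classes.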

Additional observations from a re-analysis of the deposited data

Results flagged for a closer look

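Genes that passed the size rule in opposite directions in the 2 lines had line differences of 4.31 (CXCL8), 2.34 (IL17RD), 2.11 (PDE2A), 2.90 (PLCXD2), -2.66 (PXYLP1) and -3.30 (LINC02249). With 1 array per group these differences were not tested. CXCL8 was the only one of the 6 read from more than 1 probe set, with line differences of 3.44 and 4.31.

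Among gene lists, the medians lay on opposite sides of 0 by at least 0.25 for the G1/S and DNA replication list (median line difference -1.04) and for the CXCL list (1.55, from 4 genes), also not tested.

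Probe sets with no gene name, which enter no comparison above, held line-dependent signals too: 238 of 3820 at the level minimum had a line difference of at least 1 in size (6.23%, against 6.78% of genes). In the A375 classes 100 of them were higher and 39 lower, while named genes were 234 and 249.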

How the results depend on the processing

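No paired analysis was possible because each group held 1 array. With a level minimum of 7 (8605 genes) the counts of line differences were 279 at or above 1 and 270 at or below -1. The A375 classes then held 134 and 155 genes, the SK-MEL-28 classes 6 and 18, the opposite class with A375 higher 37, and the same-direction classes 35 and 6. With no level filter the lower SK-MEL-28 class held 53. With the lines scaled to 1 SD the A375 classes held 104 and 107, the SK-MEL-28 classes 60 and 106, and the same-direction classes 22 and 49. With the other line required under 0.25 the higher A375 class held 141 and the SK-MEL-28 classes 9 and 22, and under 1 the lower SK-MEL-28 class held 52. The CXCL median was 0.12 with no level filter, 3.37 at a minimum of 7, 1.80 with intensities under 32 set to 32 and 1.81 scaled, so with 4 genes it depends on the members read. Of the other 46 list medians, at a minimum of 7 the metalloprotease list went from 0.18 to 0.54, the YAP/TAZ list from 0.01 to 0.33 (0.36 with the median of probe sets) and the fibroblast markers from 0.00 to -0.48, and scaled the ATF4 list went from 0.47 to 0.07 and the PDGF list from 0.05 to 0.33. Single genes depended on the processing too. Of 358 named genes, 145 had a line difference counted as moved with the lines scaled to 1 SD. With the median of probe sets 81 moved, and 42 moved with intensities under 32 set to 32. All 358 stayed with loess on level, with renewed quantile normalization and with no level filter. The line difference of FAM20C was 0.055 as the median of its probe sets, the 1 reversal. Renewed quantile normalization and loess on level left all 10 counts of line differences and classes within 1.5 times. Of the 249 lower A375 genes 231 kept the class with intensities under 32 set to 32, 199 with the median of probe sets and 107 scaled. Values under intensity 32 limit what can be read.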

Other observations

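Non-coding RNA and neighbouring genes appeared among the line-dependent genes. MALAT1, an abundant nuclear RNA, was at 1425 and 8026 in A375 and at 1418 and 1448 in SK-MEL-28, and all 10 of its probe sets were on that side, with line differences from 0.18 to 4.02. LINC00520 was at 29.5 and 159 in A375 and at 4472 and 3237 in SK-MEL-28. In the order of analysed genes along RefSeq chromosomes, the higher A375 class (1.7% of all genes) held 9 neighbouring pairs. Among them were MMP10 with MMP1 and MMP1 with MMP3 on chromosome 11. The lower class (1.81% of all genes) held 7, among them CCNB1 with CENPH on chromosome 5 and SKA2 with PRR11 on chromosome 17. Only 1 of 3 probe sets of PRR11 had this sign. How many pairs such shares give without clustering was not worked out, so the counts are no result about neighbours.

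Of 36 nuclear pore and importin genes, 4 were at least 2-fold lower in A375 (5.05% of all genes) and 0 were in SK-MEL-28 (2.12%), 11 were above 0 in A375, with medians of -0.28 and -0.02. The pore membrane protein NDC1 differed by -1.76 and -0.31, and the importin KPNA2 by -1.01 and -0.21. Among interferon-stimulated genes, IFIT1 (-1.49 and -0.13) and MX1 (-1.06 and -0.08) were lower in A375 (IFIT1 by 0.99 with intensities under 32 set to 32), with list medians of -0.07 and -0.08 over 30 genes. Of 12 RNA interference genes AGO3 differed by 1.52 and 0.42, on 3 of its 4 probe sets, and the medians were 0.33 and 0.05.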
